A study of Mus musculus with 30 samples.

Results

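The genes described are the mouse cytosolic ribosomal protein genes, which encode the proteins of the ribosome outside mitochondria. They were taken from the symbols of a count table of 54134 rows: Rpl or Rps followed by a number, with at most a short suffix, together with Rplp0, Rplp1, Rplp2 and Rpsa, leaving out pseudogene symbols and the Rps6k kinases. Of 89 symbols that matched, 80 reached a mean of at least 50 CPM, a gene's counts scaled to the same total in every library, and were kept. They comprise 47 genes of the large subunit, 3 of them of the P-stalk, and 33 of the small subunit. The lowest gene kept was Rpl23a, at a mean of 82.3 CPM, followed by Rpl7l1 at 184 CPM, and the highest rows left out were Rps3a3 at 23.3 CPM and Rpl32l at 22.1 CPM. Rpl24, a standard protein of the large subunit, was also left out, with only 4.84 CPM. Whether its reads were counted to other rows was not examined, so this value does not show that Rpl24 was barely expressed.

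A ribosome is built from a small and a large subunit, each of ribosomal RNA and many small proteins that are needed in nearly equal numbers. Growing cells therefore make the mRNAs of these proteins together and in large amounts, and most of these mRNAs begin with a run of pyrimidines, the 5′ terminal oligopyrimidine tract, through which the growth kinase mTORC1 controls their translation and stability. Some ribosomal proteins also have a second gene, a copy that can replace or accompany the original in certain tissues, and embryonic stem cells and early progenitors are known for high ribosome production.

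The cells were mouse embryonic stem cells of the Bruce4 line on the way to neuromesodermal progenitors, the bipotent cells at the tail end of the embryo that supply spinal cord and paraxial mesoderm. They were either wildtype or Nr6a1-/-, the latter with CRISPR/Cas9 deletions on both alleles in exon 4 of Nr6a1, which encodes an orphan nuclear receptor. All cells had FGF2 from the start. The d2 cells had FGF2 for 2 days, the d2.5 and d3 cells also had the Wnt agonist CHIR for 12 h and 24 h, the d4 cells stayed in the same medium for 1 more day, and the d4G cells had the growth factor Gdf11 for 24 h up to d4. Each of the 10 groups had 3 libraries. The Nr6a1-/- cells came from 1 clone, so that the deletion and the clone cannot be told apart, and nothing in the labels says whether the 3 libraries of a group were separate cultures, so the tests may measure technical spread only. In bulk RNA, fewer cells of a type and less RNA per cell cannot be told apart.

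Total counts ran from 1570714 to 3688197 per library, and the 80 genes took between 11.6% and 16.9% of them. Nr6a1 itself was not lower in the Nr6a1-/- libraries, at 257 to 322 CPM at d3 against 167 to 187 CPM in wildtype, but the reads lie at the 3′ end and exon 4 does not, so this checks nothing. The posterior Hox gene Hoxd11 lay between 122 and 260 CPM in the 6 d4G libraries and at no more than 1.27 CPM in every other library. Library d4 wildtype replicate 2 also carried epiblast markers, with 506 CPM of Dnmt3b and 12.5 CPM of Otx2, where the other d4 wildtype libraries had 66.4 to 68.4 CPM and at most 0.420 CPM. Without it the Gdf11 response of the family in wildtype cells had 77 calls, as with it.

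Before any result on d4, 1 library has to be named. Among the 3 d4 Nr6a1-/- libraries, replicate 1 was the highest for 79 of the 80 genes. It exceeded all 3 d4 wildtype libraries for 71 genes, whereas replicates 2 and 3 lay below all 3 d4 wildtype libraries for 72 and 74 genes. The sample labels also give the same index to 2 libraries in 6 cases, so those libraries must have been kept apart in some other way that the labels do not give. The pairs are d4 and d4G wildtype replicates 1, 2 and 3, d4 and d4G Nr6a1-/- replicate 1, and d3 and d4 Nr6a1-/- replicates 2 and 3. In each of the 6 pairs the second library had the lower share of ribosomal protein counts, at 11.6% to 13.0% against 13.8% to 16.9%. In wildtype cells each pair joins d4 and d4G, so from the labels Gdf11 cannot be told apart from whatever kept the pairs separate. The pairs of Nr6a1-/- replicates 2 and 3 join d3 and d4, so for these libraries the d3 to d4 step has the same limit. In Nr6a1-/- cells, replicates 2 and 3 of d4, which had no Gdf11, lay at a median log2 ratio of 0.08 and 0.04 to the mean of d4G Nr6a1-/-, and replicate 1 at 0.64.

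The summed share shows the course of the gene family. The wildtype libraries of d2 had 15.5%, 14.0% and 14.6% of their counts in it, those of d2.5 had 13.8%, 14.6% and 14.0%, those of d3 had 15.1%, 15.1% and 15.4%, and those of d4 had 16.4%, 16.0% and 16.4%. With Gdf11 it was 11.8%, 11.6% and 11.6%. The d4G wildtype libraries were the lowest of all, the d4 wildtype libraries were higher than every earlier wildtype library, and those 2 groups were far apart, with means of 16.2% ± 0.219 (SD, n = 3) and 11.7% ± 0.132 (SD, n = 3). The d2 libraries of Nr6a1-/- cells had shares of 14.4%, 14.8% and 13.8%, those of d2.5 had 13.8%, 13.8% and 14.1%, and those of d3 had 15.2%, 14.9% and 13.8%. They were 16.9%, 13.0% and 12.3% at d4, where replicate 1 stood above the others, and 12.4%, 12.3% and 12.5% at d4G. The 2 genotypes overlapped at d2, d2.5 and d4, and at d3 only replicate 1 of Nr6a1-/- reached the wildtype range. At d4G every Nr6a1-/- library was above every wildtype library.

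**Figure D1:**
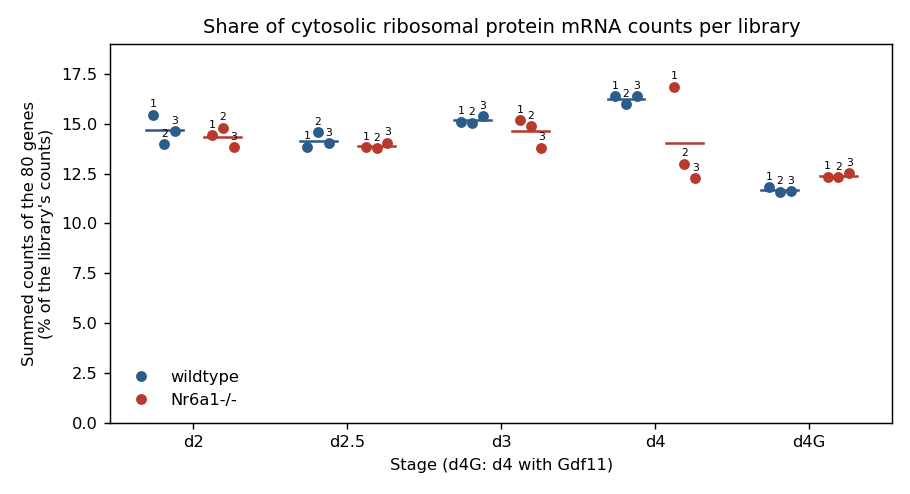
Summed counts of the 80 ribosomal protein genes in each library, as a percentage of that library's counts (vertical axis), by stage and genotype, with replicate numbers above the points and a line at each group mean. The d4 wildtype libraries lie at 16.0% to 16.4%, the d4G wildtype libraries at 11.6% to 11.8%, and the d4 Nr6a1-/- libraries are spread from 12.3% to 16.9%.

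Stretches around the annotated starts of 6 of the genes are shown because they differ in the length of the pyrimidine run, and their levels differ in response. They were chosen after the values were seen. Each is given from 35 bases before to 20 bases from the start, read on the gene's own strand, from RefSeq (GRCm38.p6), with the longest run of C and T that lies within 20 bases of the start in capitals. They are Rpl22l1 at chr3:28805473-28805527 on the plus strand, Rpl22 at chr4:152325691-152325745 on the plus strand, Rpl13a at chr7:45128726-45128780 on the minus strand, Rpl13 at chr8:123102315-123102369 on the plus strand, Rps27l at chr9:66946051-66946105 on the plus strand and Rpl7l1 at chr17:46782637-46782691 on the minus strand.
Rpl22l1: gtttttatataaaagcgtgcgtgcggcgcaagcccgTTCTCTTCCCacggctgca
Rpl22: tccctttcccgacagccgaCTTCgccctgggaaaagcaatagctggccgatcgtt
Rpl13a: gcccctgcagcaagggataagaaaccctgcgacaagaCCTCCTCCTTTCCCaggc
Rpl13: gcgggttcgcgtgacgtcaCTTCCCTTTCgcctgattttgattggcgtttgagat
Rps27l: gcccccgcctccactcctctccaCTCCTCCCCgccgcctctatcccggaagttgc
Rpl7l1: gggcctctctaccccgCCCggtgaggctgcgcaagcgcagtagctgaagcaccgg
The run is 10 bases long in Rpl22l1 and Rpl13, 14 in Rpl13a and 9 in Rps27l, and only 4 and 3 in Rpl22 and Rpl7l1. It begins at base 2 from the start in Rpl22l1 and at base 3 in Rpl13a, inside the annotated mRNA. In Rpl13, Rps27l, Rpl22 and Rpl7l1 it begins at -16, -12, -16 and -19 and ends before the annotated start. Rpl22 has another run of the same length, ccct, just after the marked one and also before the start. Those runs lie outside the annotated mRNA, and no annotated mRNA here begins with the run shown. The RefSeq start lies 127 bases from the GENCODE start used here for Rpl22 and 72 bases from it for Rpl22l1, 16 bases for Rpl13a, and at the same base for Rpl13, Rps27l and Rpl7l1, so that in the first 2 the run of the main transcript may lie outside the stretch shown.

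Of the 59 genes that matched the RefSeq promoter table by symbol, 28 (47.5%) had a run of 8 or more C or T. The run was sought on the sense strand within 20 bases on either side of the start, and 15.9% of all 27025 promoters had one. In the 300 bases around the start, the letters CCGGAAG, read on both strands, which ETS factors bind, occurred in 24 genes (40.7%) and in 9.12% of all promoters. The letters AAGATGGC, bound by YY1, occurred in 5 genes (8.47%) against 2.88%, and the letters TCAAGGTCA, an extended site that Nr6a1 is known to bind, in 0 of 59 against 0.407%. These matches are of letters only.

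Of the 13 comparisons of 2 groups, the 80 genes had the median farthest from 0 between d4G and d4 in wildtype cells. In that comparison Gdf11 cannot be told apart from whatever kept libraries of the same index separate. There 77 of the 80 genes fell, none rose, and the median log2 fold change was -0.60, where 28.8% of the 12149 genes tested changed, 14.5% fell and the median gene was at 0.02 (edgeR quasi-likelihood test over all genes, Benjamini-Hochberg FDR under 0.05). All 77 had 3 d4G libraries below the 3 d4 libraries, against 41% of all genes that did not overlap in either direction. In the large subunit 45 of 47 genes fell, with a median of -0.61, and in the small subunit 32 of 33, with a median of -0.60. Reads of Rpl22l1, Rps10 and other genes may be split with near-identical copies, as given at the end. The 3 genes that did not pass were Rpl7l1, Rpl35 and Rps25, at log2 fold changes of 0.06, -0.09 and 0.07.

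Rpl22l1 had the largest fall. This copy of Rpl22 can stand in for the original in the large subunit. Its level was 339, 307 and 297 CPM at d4 and 138, 121 and 122.7 CPM at d4G in wildtype cells. The groups lay far apart, a log2 fold change of -1.31 ± 0.166 (SE, edgeR FDR 1.5e-07). Its original Rpl22, which binds RNA outside the ribosome too, went from 3099, 3149 and 2841 CPM to 1508, 1627 and 1417 CPM. Again no libraries overlapped, and the log2 fold change was -0.997 ± 0.128 (SE, edgeR FDR 1.7e-07). The levels of different genes are given per library and not per length, and are not compared with each other.

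The proteins of the P-stalk, the flexible arm of the large subunit that recruits elongation factors, fell by unequal amounts. Rplp0, its base, was at 5152, 4773 and 5001 CPM at d4 and 3366, 2977 and 2899 CPM at d4G in wildtype cells. That is a log2 fold change of -0.69 (edgeR FDR 9.0e-07). Its partners Rplp1 and Rplp2 changed less, by -0.30 (edgeR FDR 0.00093) and -0.29 (edgeR FDR 0.0047). In Rplp1 the libraries went from 3841, 3745 and 4048 CPM to 3238, 3013 and 3197 CPM, which did not overlap either.

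In the small subunit, Rps4x fell from 867, 742 and 804 CPM to 504, 447.5 and 461 CPM (log2 fold change -0.77, edgeR FDR 5.4e-06), and its copy Rps4l from 255.5, 296 and 255 CPM to 185, 160 and 175 CPM (log2 fold change -0.64, edgeR FDR 2.4e-06). Both sets of libraries were separate. Rps27 and its copy Rps27l, a target of p53, fell by 0.73 and 0.51 on the log2 scale (edgeR FDR 4.6e-06 and 2.5e-05). Rpsa, the ribosomal protein also known as the laminin receptor precursor, was at 1228, 1270 and 1406 CPM and then at 904, 936 and 923 CPM (log2 fold change -0.50, edgeR FDR 1.2e-05). Rpl7, paired by symbol with Rpl7l1, which did not pass, fell by 0.46 on the log2 scale (edgeR FDR 5.3e-06). It went from 1553, 1559 and 1704 CPM to 1139, 1125 and 1228 CPM. The Rpl7l1 libraries at 163, 175 and 171 CPM and at 174, 164 and 193 CPM overlapped.

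Other genes of the translation and energy machinery also fell, with medians nearer to 0. Over all genes 28.8% were called in this comparison, 14.5% lower and 14.3% higher. Of 76 genes for ribosome biogenesis 37 fell and 3 rose, with a median log2 fold change of -0.24. Of 20 other translation genes, such as elongation and initiation factors, 13 fell and none rose (median -0.29). Of 75 mitochondrial ribosomal protein genes 46 fell and none rose (median -0.32), and of 82 subunit genes of oxidative phosphorylation 46 fell and 2 rose (median -0.25). With Gdf11 the share of mitochondrial counts was 3.72% to 4.82% against 3.43% to 4.60% at d4 in wildtype cells, and its part in these falls was not tested. The 3 paraxial mesoderm markers Tbx6, Msgn1 and Meox1 summed to 71.2 to 88.5 CPM in d4G and to 93.4 to 111 CPM in d4 wildtype libraries. The NMP markers T, Sox2, Nkx1-2, Cdx2, Cdx1, Wnt3a and Fgf8 summed to 429 to 449.9 CPM against 515 to 577 CPM. Of these, T and Wnt3a had higher means with Gdf11, at 159 against 83.7 CPM and 12.8 against 5.77 CPM, and the others had lower means. The part of these markers was not tested either. Among 15 genes of growth and p53 signalling 3 fell and 1 rose, with a median of -0.00. These calls are 26.7% of that list, near the 28.8% of all genes.

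**Figure D2:**
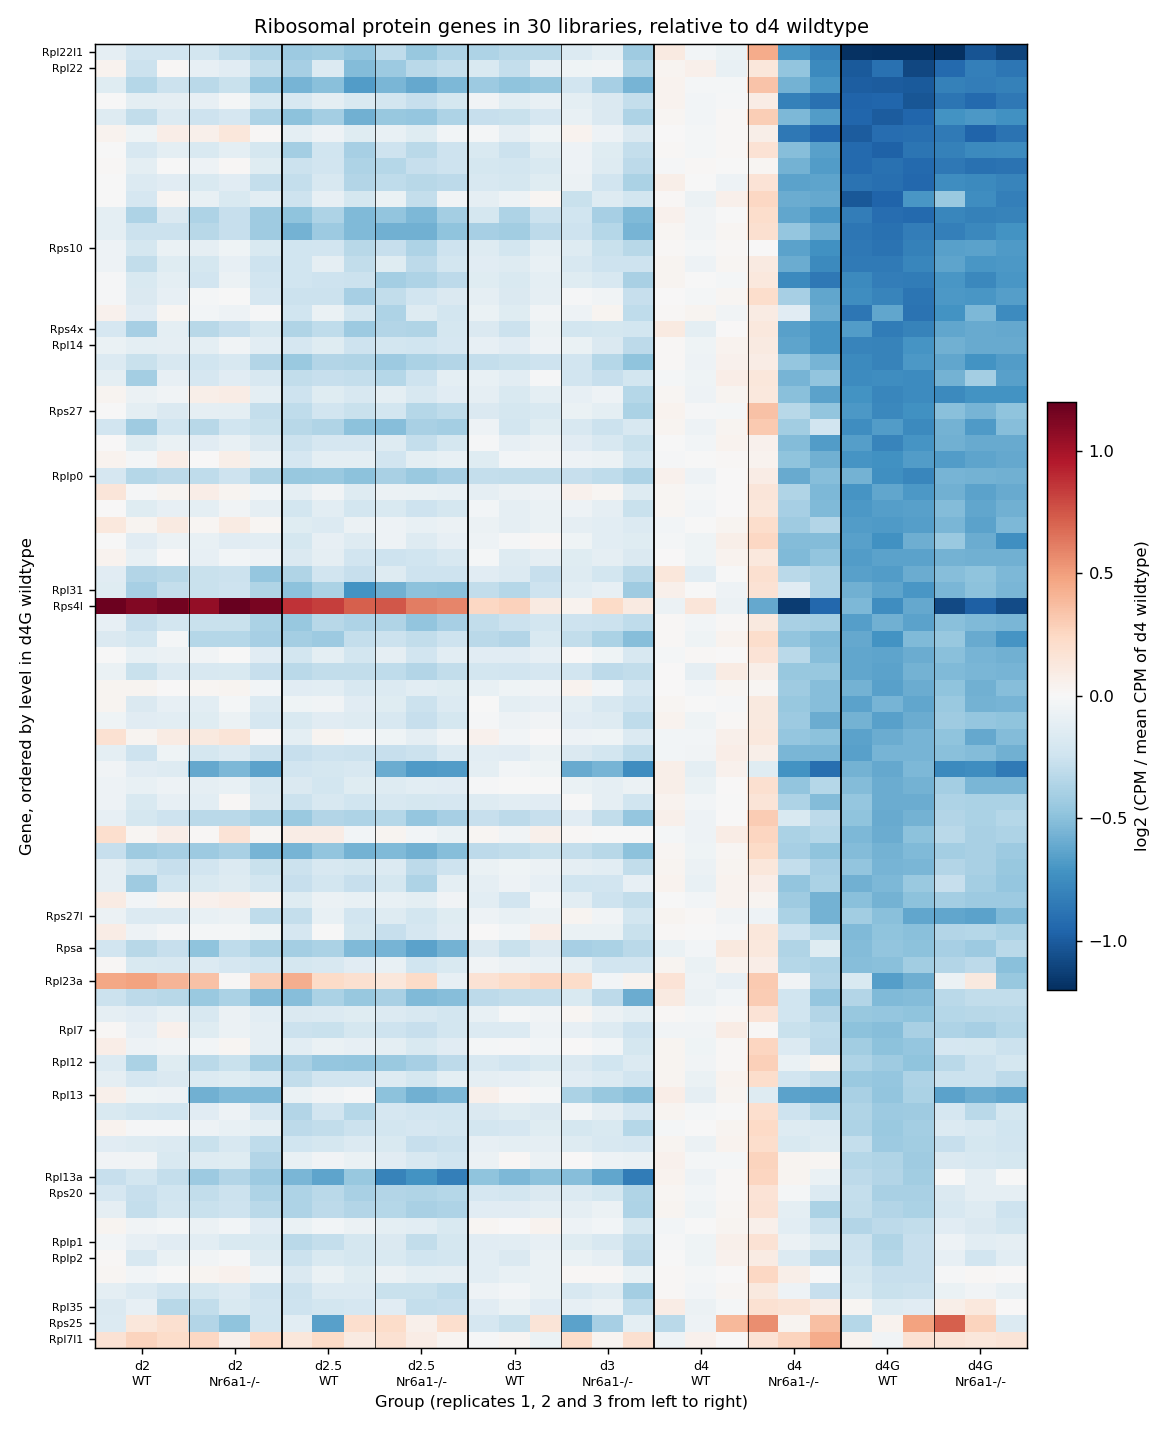
Level of each of the 80 genes (rows) in each of the 30 libraries (columns), as log2 of its CPM relative to d4 wildtype, with genes ordered by their relative level in d4G wildtype and names given for genes described in the text. Most genes are low (blue) in all 6 d4G libraries and in d4 Nr6a1-/- replicates 2 and 3, and d4 Nr6a1-/- replicate 1 is at or above the d4 wildtype level for most.

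In Nr6a1-/- cells the log2 fold change between d4G and d4 was below 0 for all 80 genes, and 40 fell by the test, with a median of -0.27, where 18% of all genes changed and 9.59% fell. The libraries did not overlap for 30 genes, against 29.3% of all genes. Rpl22l1 again had the largest fall. Its libraries were at 426, 193 and 179 CPM at d4 and 136, 153 and 145 CPM at d4G. The fall was -0.88 ± 0.169 on the log2 scale (SE, edgeR FDR 0.00017), and all the d4 values were above all the d4G values, with replicate 1 far above the other d4 libraries. Rpl22 itself was at 3329, 2180 and 1787 CPM and then at 1581, 1719 and 1658 CPM (log2 fold change -0.56, edgeR FDR 0.0014). Without replicate 1 of d4 the count of genes that fell was 9 and the median -0.05. The share of all genes called in that fit is not given here. Without replicates 2 and 3, a setting chosen after seeing the data, the median was -0.64. That setting leaves 1 library in the group, here and in each result below, and it is assumed to vary like the other groups. The 3 paraxial mesoderm markers did not set replicate 1 apart at d4, at a sum of 408 CPM against 384 and 392 CPM in replicates 2 and 3. With Gdf11 they were at 149 to 162 CPM, and the NMP markers went from 754 to 903 CPM at d4 to 387 to 423 CPM at d4G. Their part in the fall of the 80 genes was not tested.

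The log2 fold change was lower in wildtype cells for 78 of the 80 genes. All 40 genes called lower in Nr6a1-/- cells were also called lower in wildtype cells, where they made up 51.9% of the calls. As 77 of the 80 genes were called lower in wildtype cells, this overlap does not show that the genotypes are alike. Across the 80 genes the log2 responses of the 2 genotypes, which share no library, had a Pearson r of 0.847 and a Spearman rho of 0.851. These describe genes, which share libraries and are not independent. Without d4 replicate 1 the Nr6a1-/- response was much smaller, as given above. Replicate 1 is the only d4 Nr6a1-/- library that shares its index with a d4G library, as every d4 wildtype library does. From the labels, a shared response to Gdf11 cannot be told apart from whatever kept those pairs separate. The difference between the responses was itself tested. It passed for Rps10 and Rpl14 (edgeR FDR 0.013 and 0.047), where 2.66% of all genes passed and 1.17% in that direction. The median difference of the 80 was 0.31, and 58 of them had an unadjusted edgeR p under 0.05, beside 1805 of the 12149 genes tested. Rps10, a protein of the small subunit near the entry of the mRNA, went from 1215, 1178 and 1209 CPM to 664, 650 and 684 CPM in wildtype cells and from 1206, 769 and 725 CPM to 767, 767 and 748 CPM in Nr6a1-/- cells. Rpl14, of the large subunit, went from 3266, 3126 and 3339 CPM to 1868, 1866 and 1979 CPM, and in Nr6a1-/- cells from 3487, 2086 and 1989 CPM to 2179, 2134 and 2133 CPM. For both genes, d4 Nr6a1-/- replicates 2 and 3 lay near the d4G level of their own genotype, and replicate 1 near d4 wildtype. Without replicate 1 the number of genes that passed was 73, without replicates 2 or 3 it was 0, and without both of them the median difference was -0.02. The share of all genes that passed in these fits is not given here.

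**Figure D3:**
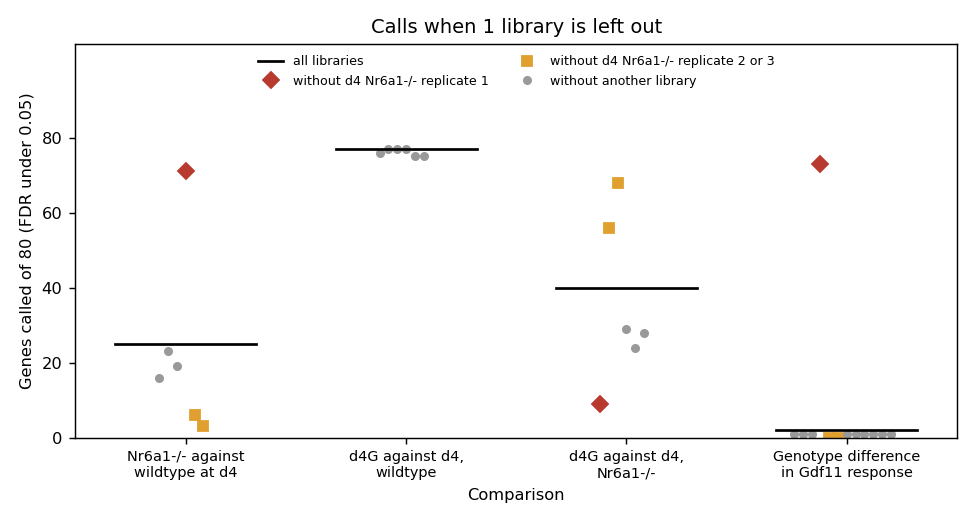
Number of the 80 genes called at FDR under 0.05 (vertical axis) in 4 comparisons, with all libraries (black line) and with 1 library left out (points). The wildtype response to Gdf11 stays at 75 to 77 genes, and the 3 comparisons that use d4 Nr6a1-/- libraries run from 3 to 71, from 9 to 68 and from 0 to 73 genes, with the extremes at those libraries.

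Between genotypes, 2 of the 80 genes, Rpl13 of the large subunit among them, were lower in Nr6a1-/- cells at d2, d2.5, d3 and d4. No other of the 80 was called at the first 3 stages. Over all genes 4.07% were called at d2 (1.35% higher, 2.72% lower), 6.45% at the next stage (2.86% higher, 3.59% lower) and 10.8% at d3 (4.47% higher, 6.3% lower). Rpl13 was at 2675, 2465 and 2463 CPM in wildtype and 1723, 1773 and 1778 CPM in Nr6a1-/- cells at d2. No library overlapped, and the log2 fold change was -0.53 ± 0.0833 (SE, edgeR FDR 4.7e-05). It came to -0.49 for d2.5 and -0.46 for d3 (edgeR FDR 0.00014 and 0.00018). At d4G Rpl13 did not pass, with a log2 fold change of -0.20 (edgeR FDR 0.15), although its libraries did not overlap.

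Rpl13 lies at GRCm38 chr8:123102350-123105244 on the plus strand. The 651 genes tested on chromosome 8 outside the 80 had a median log2 fold change of -0.38, -0.38 and -0.37 in the first 3 stages, and 22.9%, 27.8% and 30.4% of them were lower, against 1.57%, 2.22% and 4.95% of the genes on other chromosomes. At d4 and d4G the median of the chromosome was -0.29 and -0.32, with 29.6% and 24.3% lower against 7.86% and 3.53% elsewhere, beside -0.46 and -0.20 for Rpl13. The part of the chromosome in the level of Rpl13 was not tested, and the clone and the deletion cannot be told apart here. Rpl13 also shares 81.7% of the 72-base words of its last 300 transcript bases with transcripts of 8 other annotated genes, so reads may be split among them.

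The other 78 genes did not pass at the first 3 stages, which does not show that they were equal. Over all 80 the median log2 difference was -0.04, -0.00 and -0.05 in turn. At d2, 67 genes were below 0, or 44 without normalisation factors, and the libraries did not overlap for 11 of 80, all lower, against 21.3% of all genes. At d2.5, 43 were below 0, and the libraries of 11 lay lower and of 3 higher without overlap, 14 in all against 25.2%. Rps25, named here after its values were seen, was at 1502, 1849 and 1933 CPM in wildtype and 1322, 1208 and 1431 CPM in Nr6a1-/- cells at d2, which did not overlap (log2 fold change -0.42, edgeR FDR 0.28). At d2.5 it had the opposite sign, with a log2 fold change of 0.32 (edgeR FDR 0.39). At d3, 59 genes were below 0, and the libraries of 21 lay lower and of 2 higher without overlap, 23 of 80 against 28.5% of all genes. The d2 to d3 change, tested for a difference by genotype, passed for 0 of the 80 genes (edgeR, with 0 at an unadjusted p under 0.05 and 0 by DESeq2), where 2.27% of all genes passed, and these genes' differences lay between -0.19 and 0.22.

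At d4, 24 genes were lower and 1 higher in Nr6a1-/- cells, with a median log2 fold change of -0.22, where 18.9% of all genes were called, 9.18% lower and 9.7% higher. The libraries did not overlap for 5 genes, against 29.2% of all genes. The 4 of them that lay lower included Rps4l, Rpl13 and Rps27l, and with replicate 1 alone the last 2 had log2 values of -0.15 and -0.06. Without replicate 1 the count rose to 71, of which 70 were lower, and without replicate 2 or 3 it was 6 or 3. The shares of all genes above are for the fit with all libraries and are not given for these counts. Replicate 1 alone lay at a median log2 ratio of 0.15 to the d4 wildtype mean, and replicates 2 and 3 at -0.41 and -0.49. The direction of the family at d4 therefore rests on which Nr6a1-/- libraries are used. Rplp0 is an example, at 5152, 4773 and 5001 CPM in wildtype and at 5295, 3279 and 3482 CPM in Nr6a1-/- cells. Its log2 fold change was -0.31 (edgeR FDR 0.021), with replicate 1 above all 3 wildtype libraries.

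The gene higher in Nr6a1-/- cells at d4 was Rpl7l1, which is paired with Rpl7 here by its symbol alone. It was at 191, 204 and 230.5 CPM against 163, 175 and 171 CPM in wildtype. The groups did not overlap, and the log2 fold change was 0.30 ± 0.0830 (SE, edgeR FDR 0.0095), and replicate 1 alone gave 0.17. Rps27l was lower, at 1724, 1388 and 1214 CPM against 1839, 1813 and 1750 CPM (log2 fold change -0.32, edgeR FDR 0.0079), also without overlap.

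At d4G most of the 80 genes lay slightly higher in Nr6a1-/- cells, and few passed the test. The median log2 difference was 0.13, 76 of 80 genes were above 0, and the libraries of 51 lay higher and of 3 lower without overlap, 54 in all, against 24.3% of all genes. By the test 3 genes were higher and 1 lower, where 7.9% of all genes were called, 3.28% higher and 4.63% lower, so that the count is near that of all genes. Without normalisation factors 3 were higher and 2 lower, with a median of 0.09. Cell type markers differed between the same libraries, and their part was not tested. The paraxial mesoderm markers summed to 149 to 162 CPM in Nr6a1-/- and 71.2 to 88.5 CPM in wildtype cells, and endoderm markers such as Sox17 and Foxa2 to 7.72 to 13.5 CPM against 77.6 to 88.4 CPM. Rpl13a, which has a second role in the control of translation in inflammation, was at 566, 528 and 566 CPM against 458, 446 and 424 CPM in wildtype (log2 fold change 0.32 ± 0.0801, SE, edgeR FDR 0.0065). Rps20, of the small subunit, was at 3047, 3183 and 3177 CPM against 2809, 2616 and 2623 CPM (log2 fold change 0.23, edgeR FDR 0.032). In both the genotypes were separate, with folds of 1.25 and 1.17.

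**Figure D4:**
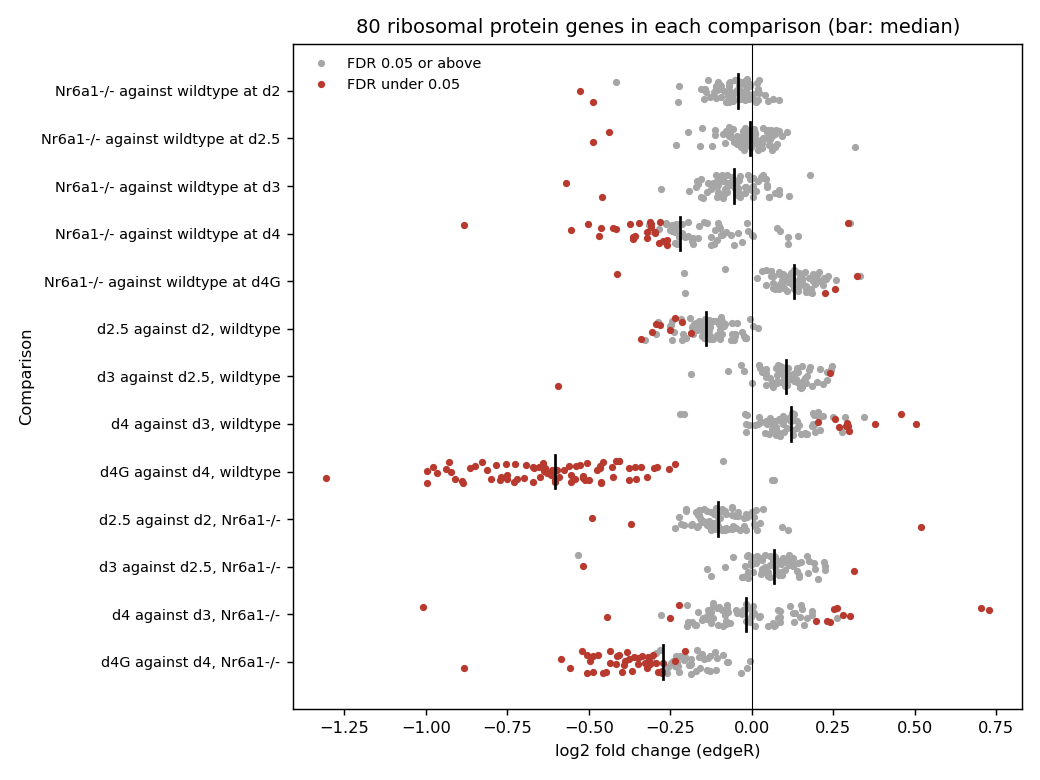
Log2 fold change (horizontal axis) of each of the 80 genes in 13 comparisons, red where FDR is under 0.05, with a black bar at the median of the 80. The median is -0.60 for Gdf11 in wildtype and -0.27 in Nr6a1-/- cells, and between -0.22 and 0.13 elsewhere.

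Rps4l is a copy of the X-linked small subunit gene Rps4x with 1 short locus on chromosome 6 (GRCm38 chr6:148354656-148355598). From d2.5 to d4 it did not follow the family, and its group mean was lower at each later stage. In wildtype cells its level was 605, 580 and 597 CPM at d2, 490, 475 and 442 CPM at d2.5, 319, 325.5 and 288 CPM at d3, and 255.5, 296 and 255 CPM at d4. In Nr6a1-/- cells it was 558, 621 and 591 CPM at d2, 448, 411 and 402 CPM at d2.5, 276, 315 and 289 CPM at d3, and 175, 121 and 140 CPM at d4. With Gdf11 the levels were 185, 160 and 175 CPM in wildtype and 126, 136 and 127 CPM in Nr6a1-/- cells. Neighbouring groups in time did not overlap, apart from d3 and d4 in wildtype.

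The fall of Rps4l from d2 to d2.5 was 0.34 in wildtype and 0.49 in Nr6a1-/- cells on the log2 scale (edgeR FDR 0.0040 and 6.0e-05), and from d2.5 to d3 it was -0.60 and -0.52 (edgeR FDR 1.1e-05 and 5.4e-05). From d3 to d4 it fell by 1.01 on the log2 scale in Nr6a1-/- cells (edgeR FDR 2.2e-10), while the wildtype value of -0.21 did not pass (edgeR FDR 0.11). The difference between genotypes in that step was -0.80 ± 0.132 (SE, edgeR FDR 9.9e-05), the only one of the 80 to pass, where 5.72% of all genes passed and 2.75% in that direction. At d4 Rps4l was lower in all 3 Nr6a1-/- libraries than in any wildtype library (log2 fold change -0.88 ± 0.0955, SE, edgeR FDR 4.9e-09), and with replicate 1 alone the value was -0.61. At d4G its log2 fold change was -0.41 (edgeR FDR 0.0053). With Gdf11 in Nr6a1-/- cells it changed by -0.17, which did not pass (edgeR FDR 0.28). Its original Rps4x had no such course: in wildtype cells the range was 607.5 to 738.5 CPM at d2, 592 to 649 CPM at d2.5, 669 to 761 CPM at d3 and 742 to 867 CPM at d4. Reads of 1 copy may be counted to the other. No transcript was matched for Rps4l, so its overlap with Rps4x was not computed.

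**Figure D5:**
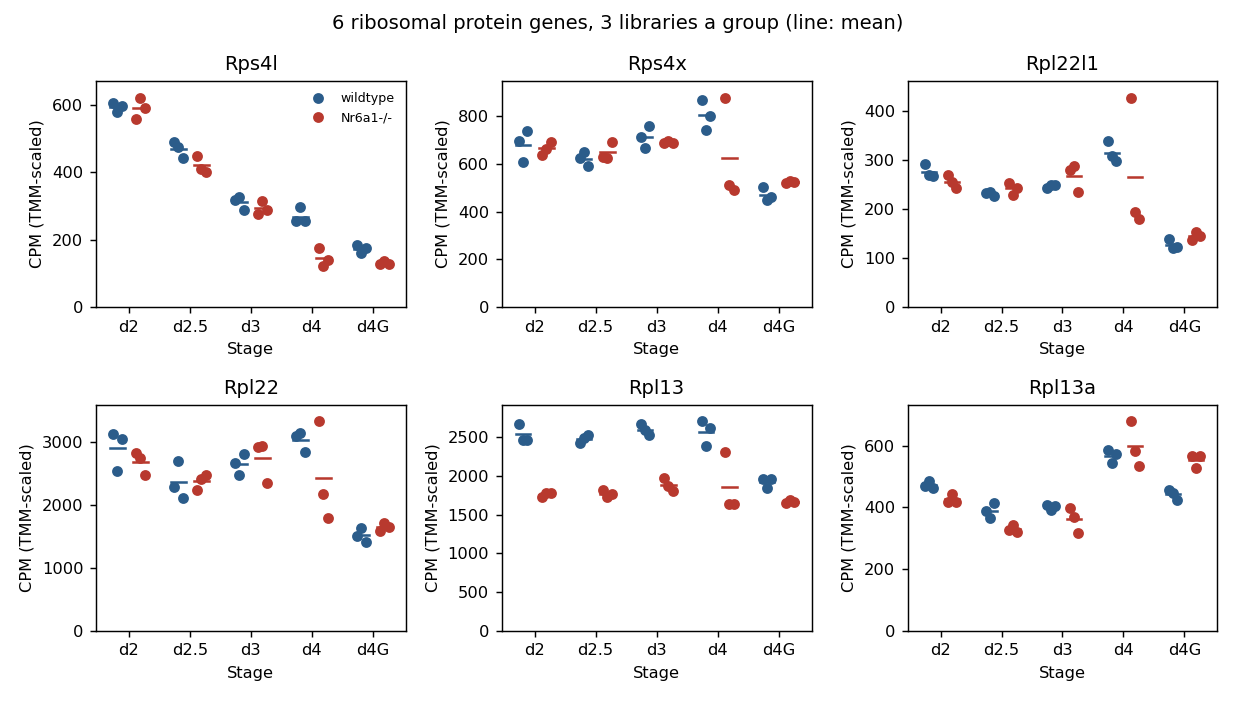
CPM of 6 genes (vertical axes, from 0) in each library by stage (horizontal axis), wildtype in blue and Nr6a1-/- in red, with a line at each group mean of 3. Rps4l is at 558 to 621 CPM at d2 and at 126 to 185 CPM at d4G, Rpl22l1 and Rpl22 are lowest at d4G, and Rpl13 is lower in Nr6a1-/- cells from d2 to d3.

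Across the stages without Gdf11 the medians of the 80 genes stayed nearer to 0. From d2 to d2.5 in wildtype cells 8 genes fell and none rose, with a median of -0.14, where 25.4% of all genes were called and 12.1% fell. Libraries did not overlap for 50 of 80, all lower, against 38.8%. From d2.5 to d3 the count was 1 higher and 1 lower, where 11.5% of all genes were called (5.91% and 5.56%), with a median of 0.10 and no overlap for 52 genes, 50 of them higher, against 30.2%. From d3 to d4, 11 rose and none fell, where 21.1% of all genes were called (9.77% and 11.3%), with a median of 0.12 and no overlap for 54 genes, 53 of them higher, against 36.8%. Rpl12, of the large subunit at the base of the stalk, rose from 973, 923 and 920 CPM at d2.5 to 1113, 1086 and 1124 CPM at d3 (log2 fold change 0.24, edgeR FDR 0.034). Rpl13a rose most from d3 to d4, from 407, 391 and 404 CPM to 585.5, 545 and 573 CPM, a log2 fold change of 0.50 (edgeR FDR 1.0e-05). Both were rises without overlap.

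In Nr6a1-/- cells the single steps up to d3 were not tested for a difference from wildtype. From d2 to d2.5, 1 gene rose and 2 fell, or none rose and 4 fell with the size factors of DESeq2 (RLE) in place of TMM, where 24.1% of all genes were called (12.9% and 11.2%), with a median of -0.11 and no overlap for 41 genes against 40.6%. The gene that rose was Rps25, known for its part in initiation at internal ribosome entry sites, from 1322, 1208 and 1431 CPM to 1970, 1764 and 1942 CPM (log2 fold change 0.52, edgeR FDR 0.048). From d2.5 to d3, 1 rose and 1 fell, where 15.9% of all genes were called (7.43% and 8.45%), with a median of 0.07 and no overlap for 15 genes against 31.9%. Rpl31, of the large subunit near the exit tunnel, rose from 2302, 2439 and 2425 CPM to 3139, 3219 and 2552 CPM (log2 fold change 0.31, edgeR FDR 0.019). From d3 to d4, 9 rose and 4 fell, where 25.9% of all genes were called (13.6% and 12.3%), with a median of -0.02 and no overlap for 7 genes against 34.4%. Without normalisation factors the balance turned, with 5 that rose, 13 that fell and a median of -0.10. Without replicate 1 of d4, 3 rose and 47 fell, and the share of all genes called in that fit is not given here. Replicate 1 alone lay at a median log2 ratio of 0.33 to the d3 Nr6a1-/- mean, and replicates 2 and 3 at -0.20 and -0.27. Rpl13a was the largest rise here too, from 399, 368 and 318 CPM to 679, 581 and 536 CPM (log2 fold change 0.73, edgeR FDR 6.5e-09). All 3 d4 libraries were above all 3 of d3.

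Over the whole series 58 of the 80 genes had their highest group mean in d4 wildtype and 65 their lowest in d4G wildtype. The widest range of group means was that of Rps4l, at 2.19 on the log2 scale, followed by Rpl22l1 at 1.31. Of the 79 genes with a matched transcript, 57 share at least one 72-base word of their last 300 bases with a transcript of another annotated gene, and 38 share over 50% of them. The share was 59.8% for Rpl22l1, 61.1% for Rps10 and 86.0% for Rpl31, and 0 for Rpl14, Rpl13a, Rps20 and Rpl7l1. For genes with shared words, the deposited values may include or lose reads of such copies. In wildtype cells with Gdf11 the 22 genes without a shared word had a median of -0.56, with 21 of them lower, and the 38 genes with over 50% shared had a median of -0.64, with 37 lower.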

How the data were processed

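The authors deposited a table of whole-number counts per gene, not normalised, for 30 libraries primed at the poly(A) tail. The submitters' processing notes name STAR, edgeR and mm10. The aligner version, annotation, counting tool, use of strand and treatment of molecular identifiers are not given in the sources used here. Tables of the authors' own fold changes and p-values were not used. All columns matched a label, and 0 remained unmatched.

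The 80 genes, the gene lists and the tests were chosen with earlier results of these data known. The test kept 12149 of 54134 genes, those over both 10 counts and 2 CPM in no fewer than 2 libraries of any group. Counts were scaled by TMM and fitted as 10 groups with 20 residual degrees of freedom in edgeR 4.0.16 (R 4.3.3), with glmQLFTest, 2-sided, in 16 comparisons. Adjusted p-values are Benjamini-Hochberg FDR over all genes tested, called under 0.05. Standard errors are the log2 fold change over the square root of F. Printed CPM, summed markers and the means of T and Wnt3a included, are TMM-scaled. Those in the choice of genes and those of Nr6a1, Hoxd11, Dnmt3b and Otx2 use library totals. The script was tested on simulated data. DESeq2 1.42.0 was an alternative.

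Named genes were the largest called rises and falls, up to 3 each way between genotypes and in tests of differences, 1 each way elsewhere, together with copies and their originals, genes of chromosome 8 and of the stalk, Rpsa and the genes nearest the CPM minimum. The genes Rpl35 and Rps25 in the Gdf11 response of wildtype cells were named after their values were seen, as 2 of the 3 that did not pass, and so was Rpl24. Some genes that the rule names are not reported here. Positions are from GENCODE mouse release M21 on GRCm38.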

Additional observations from a re-analysis of the deposited data

Results flagged for a closer look

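The response of a gene differed between genotypes, by a test of the difference itself, for 1 of the 80 genes in the d3 to d4 change, where 5.72% of all genes passed, and for 2 in the Gdf11 response, where 2.66% passed. In the d2 to d3 change it was 0 of 80, where 2.27% passed, so that no count over both directions exceeds the share over all genes. Rps4l fell more from d3 to d4 in Nr6a1-/- than in wildtype cells, a difference of -0.80 on the log2 scale, and this passed in each of 20 alternatives, with edgeR or DESeq2 FDR up to 0.023, the highest in the setting that leaves 1 d4 Nr6a1-/- library. Rps10 and Rpl14 fell less with Gdf11 in Nr6a1-/- than in wildtype cells, by 0.61 and 0.54 on the log2 scale. Rps10 passed in 16 of 20 alternatives and Rpl14 in 6 of 20, and both values drop to 0.19 and 0.07 when d4 Nr6a1-/- replicates 2 and 3 are left out.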

How the results depend on the processing

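Counts of the 80 genes called under an alternative are given here without the share of all genes called, which may also differ by setting. Of 685 values for single genes under the alternatives, 603 kept their direction and side of the threshold, 77 no longer passed, 3 newly passed and 2 reversed. The reversed values were those of Rps4x (0.13) and Rplp0 (0.092) between genotypes at d4 without d4 Nr6a1-/- replicates 2 and 3, a setting chosen after seeing the data. That setting, with 1 library in the group and the spread taken from the others, gave 16 calls between genotypes at d4, 66 from d3 to d4 and 75 for Gdf11 in Nr6a1-/- cells, and 6 and 0 for the genotype differences in the d3 to d4 change and the Gdf11 response. Without normalisation factors the counts were 40 between genotypes at d4, 3 from d2 to d2.5 in wildtype, 4 from d2.5 to d3 in Nr6a1-/- cells, and 5 and 10 for those 2 differences, and the median of all genes for Gdf11 in wildtype moved to 0.11 and that of the 80 genes to -0.51. Without a filter they were 2 between genotypes at d4G, 13, 6 and 19 for the 3 wildtype steps, and 7 and 17 for the differences. DESeq2 gave 1 for the difference in the Gdf11 response. With only the libraries compared, the counts were 4, 3 and 20 between genotypes at d2, d4 and d4G, 21, 17 and 30 for the wildtype steps, 25, 6 and 3 for the Nr6a1-/- steps, 4 for Gdf11 in Nr6a1-/- cells and 0 for the difference in its response.

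With the replicate block the 2 differences had 2 and 5 calls, and no other count moved by over 1.5 times. The labels give only a number. Of 15 same-numbered pairs of a wildtype and an Nr6a1-/- library of the same stage, 2 correlated over 0.1 (r from -0.19 to 0.11). These values show no pairing by number, and they cannot exclude a weak one.

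Leaving out 1 library gave 2 to 2 calls between genotypes at d2, d2.5 and d3, 3 to 71 at d4 and 1 to 3 at d4G. The wildtype steps had 3 to 8, 1 to 1 and 1 to 12, the Nr6a1-/- steps 2 to 3, 1 to 4 and 8 to 50, Gdf11 75 to 77 in wildtype and 9 to 68 in Nr6a1-/- cells, and the 3 genotype differences 0 to 0, 1 to 49 and 0 to 73. Besides d4 Nr6a1-/- libraries, single libraries moved counts by over 1.5 times at d4 (16 without d4 wildtype replicate 1), at d4G (2 and 1 without d4G wildtype replicates 2 and 3), from d2 to d2.5 in wildtype (4, 3, 5 and 5 without d2 replicates 1 and 3 and d2.5 replicates 1 and 3), from d3 to d4 in wildtype (2, 1, 3, 3 and 4 without d3 replicates 1, 2 and 3 and d4 replicates 1 and 3), from d3 to d4 in Nr6a1-/- cells (8 without d3 replicate 2) and for Gdf11 there (24 without d4G replicate 2). From d2.5 to d3 any wildtype library left 1 call, and d2.5 replicate 1 and d3 replicates 1, 2 and 3 of Nr6a1-/- left 1, 1, 1 and 4. The d3 to d4 difference had 2 calls without d3 Nr6a1-/- replicate 3, and the Gdf11 difference 1 without any d4 wildtype or d4G library. Among genes named, Rps20 at d4G and Rpl12 from d2.5 to d3 passed in 6 of 13 alternatives each and Rps25 from d2 to d2.5 in 5 of 13.

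The mean share, counted outside mitochondrial genes or without the highest gene, was 14.9% or 13.8% in d2 Nr6a1-/-, 14.7% or 13.6% in d2.5 wildtype, 14.4% or 13.3% in d2.5 Nr6a1-/-, 15.8% or 14.6% in d3 wildtype, 16.9% or 15.5% in d4 wildtype, 12.2% or 11.1% in d4G wildtype and 13.0% or 11.8% in d4G Nr6a1-/-. The lowest count of any of the 80 genes in a library was 121.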

Other observations

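Rps25 varied more among replicates than any other of the 80 genes, with a pooled SD of 0.31 on the log2 scale. In d2.5 wildtype it was at 1543, 1071 and 1939 CPM, in d4 wildtype at 1350, 1613 and 2209 CPM and in d4G Nr6a1-/- at 2778, 2036 and 1505 CPM. Pseudogene rows of ribosomal proteins, 296 symbols with a -ps suffix, took 0.820% to 1.13% of counts.

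The 76 ribosome biogenesis genes were not tested against the 80 ribosomal protein genes, and the values of both lists are given side by side. From d2.5 to d3 in wildtype cells 23 of the 76 fell and none rose, where 11.5% of all genes were called and 5.56% fell, with a median log2 fold change of -0.21 beside 0.10 for the 80. In Nr6a1-/- cells 10 fell and 1 rose in that step, where 15.9% of all genes were called, with a median of -0.07 beside 0.07. From d2 to d2.5 in wildtype cells 9 of the 76 fell and 6 rose (19.7% called), where 25.4% of all genes were called. The median was -0.08 beside -0.14. From d3 to d4, 14 rose and 1 fell (19.7% called), where 21.1% of all genes were called. That median was 0.14 beside 0.12.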
